A study of Homo sapiens with 12 samples.

Results

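The Notch pathway was examined through 10 genes: the receptors NOTCH1, NOTCH2 and NOTCH3, the ligands JAG1, JAG2, DLL1 and DLL4, the target repressors HES1 and HEY1, and ATOH1, the transcription factor that commits gut progenitors to secretory fates. The members were all probes whose RefSeq identifier maps to these genes. They came to 12 probes of 10 genes, out of 17240 genes named on the array, with HES1 measured by 3 probes and the other genes by 1 each. The NOTCH1 probe is printed in 10 spots on each array, and the other member probes in 1 spot.

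The series holds 12 two-colour arrays on total RNA of 2 human cell lines, all transfected with siRNA at 15 nM for 72 h. Ls174T is a colorectal cancer line whose Wnt pathway is constitutively active, and HEK293T is an embryonic kidney line in which the pathway can be switched on by Wnt3A. In Ls174T cells, 1 array each held si-control, si-MLLT10, si-BRG1 or si-P300 RNA beside human reference RNA, and a pair of arrays with exchanged dyes set si-b-catenin RNA against si-control RNA. In HEK293T cells, si-control RNA came from cells in control medium (CM) and from cells in Wnt3A-conditioned medium, and all depleted cells were in Wnt3A (siRNAs si-MLLT10 and si-DOT1L, and further si-BRG1 or si-P300), with 9 h in either medium and the same reference on each array. Each condition was 1 RNA sample, so no test between conditions was possible, and no p-value is given. The siRNAs were pools, and depletion was by transient transfection. MLLT10 (AF10) is a partner of the H3K79 methyltransferase DOT1L, BRG1 (SMARCA4) is the ATPase of SWI/SNF remodelling complexes, and p300 (EP300) is a histone acetyltransferase; the comparisons ask how much each serves the genes under β-catenin control.

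Notch signalling passes between neighbouring cells. A ligand of the Delta or Jagged family on one cell binds a NOTCH receptor on the next, the receptor is cleaved by ADAM proteases and γ-secretase, and the freed intracellular domain enters the nucleus, joins the DNA-binding protein RBPJ and a MAML coactivator that recruits p300, and turns on repressors of the HES and HEY families. In the crypts of the intestine, Notch and Wnt activity together keep progenitors undifferentiated: HES1 represses ATOH1, and cells that escape Notch express ATOH1 and Delta ligands and become goblet, Paneth or enteroendocrine cells.

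The sequences just upstream of the transcription start are shown for the 4 members on which the results turn: HES1, the repressor whose signal was higher after β-catenin depletion; JAG1 and NOTCH1, which moved most; and ATOH1, which was well above background only in Ls174T cells. RefSeq promoter sequences (GRCh38.p14) were matched for 8 of the 10 genes; DLL1 and HEY1 had no entry. Each run gives the 250 bases before the start, 5′ to 3′ on the strand of the gene, in lower case. Capitals mark TGGGAA, the core of the RBPJ motif, or CTTTGA, a core of the TCF/LEF motif, each searched on both strands; the 2 sets of letters did not overlap in these windows.
HES1 (chr3:194135898-194136147, plus strand): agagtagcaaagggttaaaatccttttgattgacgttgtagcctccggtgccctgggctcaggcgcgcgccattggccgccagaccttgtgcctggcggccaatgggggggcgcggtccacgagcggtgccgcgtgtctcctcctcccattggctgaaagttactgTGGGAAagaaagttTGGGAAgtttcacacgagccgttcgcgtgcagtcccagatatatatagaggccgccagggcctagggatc
ATOH1 (chr4:93828503-93828752, plus strand): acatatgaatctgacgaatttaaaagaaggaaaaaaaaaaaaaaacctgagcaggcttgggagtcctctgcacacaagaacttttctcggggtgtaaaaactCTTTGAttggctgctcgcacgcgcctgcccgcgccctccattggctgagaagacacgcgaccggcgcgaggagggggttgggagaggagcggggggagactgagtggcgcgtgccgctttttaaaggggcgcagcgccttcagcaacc
JAG1 (chr20:10674000-10674249, minus strand): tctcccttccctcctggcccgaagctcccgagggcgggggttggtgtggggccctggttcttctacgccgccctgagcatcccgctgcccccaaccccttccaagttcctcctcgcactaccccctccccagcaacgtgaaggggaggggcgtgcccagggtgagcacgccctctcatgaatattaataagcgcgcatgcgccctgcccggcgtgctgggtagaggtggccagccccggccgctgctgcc
NOTCH1 (chr9:136546049-136546298, minus strand): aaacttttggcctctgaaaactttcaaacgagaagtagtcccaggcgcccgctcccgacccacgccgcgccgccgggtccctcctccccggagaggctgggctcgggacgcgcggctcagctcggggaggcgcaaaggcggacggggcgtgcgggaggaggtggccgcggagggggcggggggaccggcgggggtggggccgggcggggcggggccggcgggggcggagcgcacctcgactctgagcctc
HES1 held 2 RBPJ letter runs in the same orientation, 84 to 79 and 70 to 65 bases before the start. The motif occurred in 20.8% of the 35116 promoter windows of this length. ATOH1 held 1 TCF/LEF run, 148 to 143 bases before the start, a motif present in 11.2% of the windows. The windows of the other 6 members held neither set of letters. These are matches of letters and not binding sites, and none of the arrays measured binding.

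The arrays gave 27717 to 31011 well-measured spots (either channel over 2 times its local background) on the 10 reference arrays and 18104 to 23077 on the β-catenin pair. The depleted genes were lower than in si-control by every probe but 1 of DOT1L: on the log2 scale CTNNB1 changed by -2.70 to -2.49, MLLT10 by -1.42 in Ls174T and -1.76 in HEK293T cells, SMARCA4 by -2.53 to -2.24 and by -3.95 or lower, EP300 by -1.31 to -0.60 and by -2.98 to -2.35, and DOT1L by -1.97 to 0.17 over 3 probes. Markers were read on the 10 reference arrays and not on the β-catenin pair. All 11 intestinal epithelial markers examined were well above background on every Ls174T reference array. NEFL, NEFM and VIM, which HEK293T cells are known to express, were well above background on every HEK293T array. Of the 11 intestinal markers, 6 were as well, and CDH17 and CEACAM5 were on none. VIM was well above background on every Ls174T reference array too. By log2 ratio to the reference, VIM stood at -7.75 to -7.19 in Ls174T and -1.51 to -0.55 in HEK293T cells. Of the 6 intestinal markers, only CDX2 overlapped between the lines, at 3.96 to 4.31 and 3.82 to 4.34. EPCAM, for one, stood at 2.44 to 2.70 and -5.19 to -4.03. Among the markers of other cell types, CD3E (leukocyte), COL1A2 and DCN (fibroblast) were scored well above background on all reference arrays of both lines. Against the reference, COL1A2 and DCN stood at -6.99 to -5.92 and CD3E at -0.32 to 0.32. No endothelial marker was well above background on every reference array. The part of these markers in the results was not tested.

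Several members stood at different levels in the 2 lines. Levels are given as the log2 ratio to the reference RNA, with the values of the 4 Ls174T arrays and of the 6 HEK293T arrays, whatever the siRNA. JAG1, DLL1 and NOTCH1 were higher in Ls174T cells, HEY1 and NOTCH2 were higher in HEK293T cells, and JAG2 overlapped between the lines. Of the 9 member probes that passed the signal filter on all 10 arrays, 6 did not overlap between the lines, against 57.3% of all 24059 probes that passed it, a share close to that background. The sample was labelled with Cy3 and the reference with Cy5 throughout, so a dye effect of a probe is part of each level but not of the difference between arrays.

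HEY1, a hairy-related repressor induced by NOTCH in many tissues, showed the widest gap. Its log2 ratio was -5.74 in si-control, -6.14 in si-MLLT10, -6.12 in si-BRG1 and -5.58 in si-P300 Ls174T cells, and 1.81 to 2.06 on the HEK293T arrays. The median levels differed by -7.78 on the log2 scale (Ls174T minus HEK293T). The sample channel in Ls174T cells was only 2.0 to 2.4 times the local background, against 212 to 324 times in HEK293T cells, so the Ls174T levels lie close to the limit of detection.

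JAG1, the Jagged ligand that is itself a Wnt target in the colon, had log2 ratios of -0.18 in si-control, -0.32 in si-MLLT10, -0.18 in si-BRG1 and -1.08 in si-P300 Ls174T cells. In HEK293T cells it stood at -3.67 in control medium, -3.58 in Wnt3A, -3.92 with si-MLLT10, -3.46 with si-DOT1L, -3.82 with si-BRG1 and -4.39 with si-P300. No array of one line reached the range of the other, and the si-P300 array was the lowest in both. In these RNA pools, fewer cells with a transcript and less of it per cell cannot be told apart.

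NOTCH1, the receptor that acts with NOTCH2 to hold crypt progenitors, had mean log2 ratios over its spots of 0.91 in si-control, 0.69 in si-MLLT10, 1.24 in si-BRG1 and 1.10 in si-P300 Ls174T cells, with SDs between spots of 0.05 to 0.10. In HEK293T cells the means were -0.70 in control medium, -0.58 in Wnt3A, -1.01 with si-MLLT10, -0.48 with si-DOT1L, -1.73 with si-BRG1 and -1.19 with si-P300, with SDs of 0.11 to 0.23. The lines did not overlap, and within HEK293T cells the si-BRG1 array stood lowest. The spots were dim, at 1.6 to 2.1 times background in HEK293T cells and 2.4 to 3.8 times in Ls174T cells. The SD between spots of 1 array covers printing and hybridisation but not the variation between cultures.

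**Figure D1:**
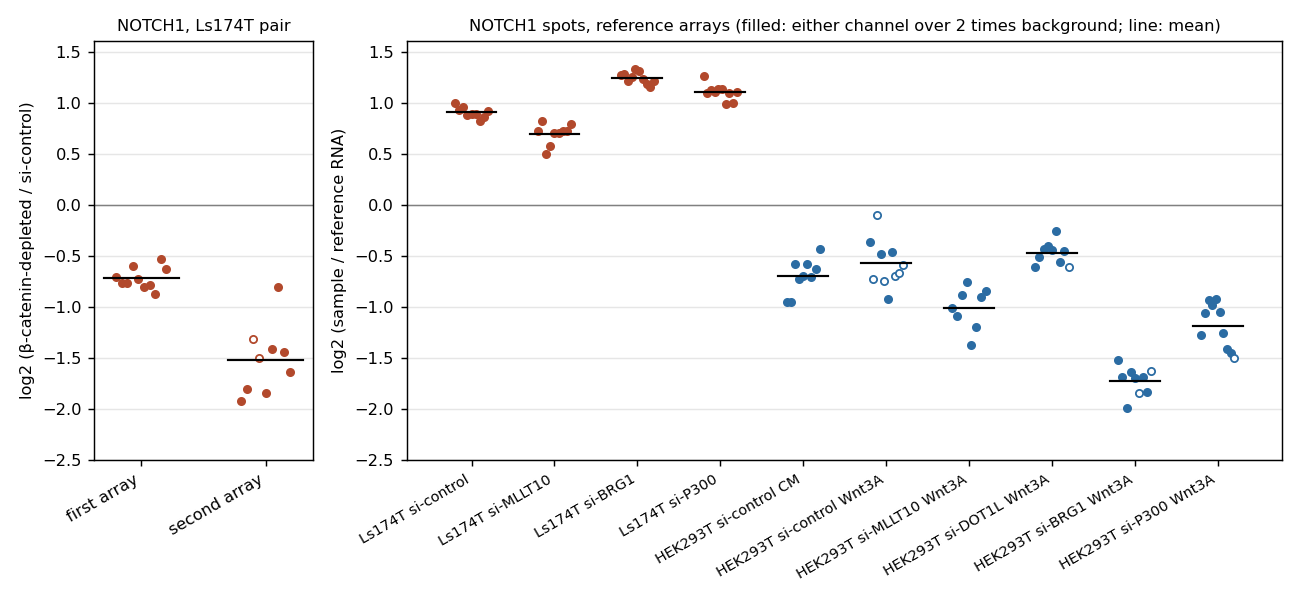
Log2 ratio of every usable NOTCH1 spot, on the dye-exchanged pair (left; β-catenin-depleted over si-control RNA) and on the 10 reference arrays (right; sample over reference RNA), with the mean of each array as a black line; filled points had either channel over 2 times background. The Ls174T arrays had means of 0.69 to 1.24 and the HEK293T arrays of -1.73 to -0.48, and the 2 arrays of the pair had means of -0.72 and -1.52.

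NOTCH2 ran the other way, from -1.67 to -1.41 in Ls174T cells and from -0.92 to -0.43 in HEK293T cells, a difference of -0.80 between the medians (Ls174T minus HEK293T). DLL1, the Delta ligand of secretory precursors, was at 3.25 to 3.77 in Ls174T cells and at 1.72 to 2.48 in HEK293T cells. JAG2 gave 1.54 to 1.86 and 1.32 to 1.75, and its ranges overlapped.

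The 3 HES1 probes were not of equal quality. A_23_P17998 ran from -0.48 to -0.15 in Ls174T and from -0.21 to 0.32 in HEK293T cells, overlapping slightly. A_24_P938293 ran from -0.88 to -0.50 and from -0.26 to 0.12, without overlap. A_23_P6596 overlapped, with 2.05 to 2.55 and 1.96 to 2.27, and was read at 2.2 to 4.6 times background, where the other probes were at 30 to 144 times. The difference between medians (Ls174T minus HEK293T) was -0.56 and -0.60 by the bright probes and 0.23 by the dim one, so the probes of HES1 did not agree on the line with the higher level.

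ATOH1 and DLL4, both linked to secretory precursors in the gut, were well above background on all 4 Ls174T arrays and on none of the 6 HEK293T arrays. ATOH1 had log2 ratios of 3.78 in si-control, 3.76 in si-MLLT10, 3.32 in si-BRG1 and 3.40 in si-P300 Ls174T cells. DLL4, whose signal was 1.7 to 2.9 times background, had ratios of 5.69, 4.62, 4.39 and 3.95 in the same order. The HEK293T signal in si-control cells in control medium was set to the lowest level scored well above background on that array. Against that level the si-control Ls174T signal was 14.4-fold higher for ATOH1 and 9.01-fold higher for DLL4. That level is not a limit of detection, so these folds are not strict minima. NOTCH3 in si-control Ls174T cells was not scored well above background at a log2 signal of 5.21, over that array's lowest scored level of 4.61. NOTCH3, a receptor best known from vascular smooth muscle, was scored well above background on 2 of 4 Ls174T and 6 of 6 HEK293T arrays, but at no more than 2.0 times background, and did not pass the filter.

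**Figure D2:**
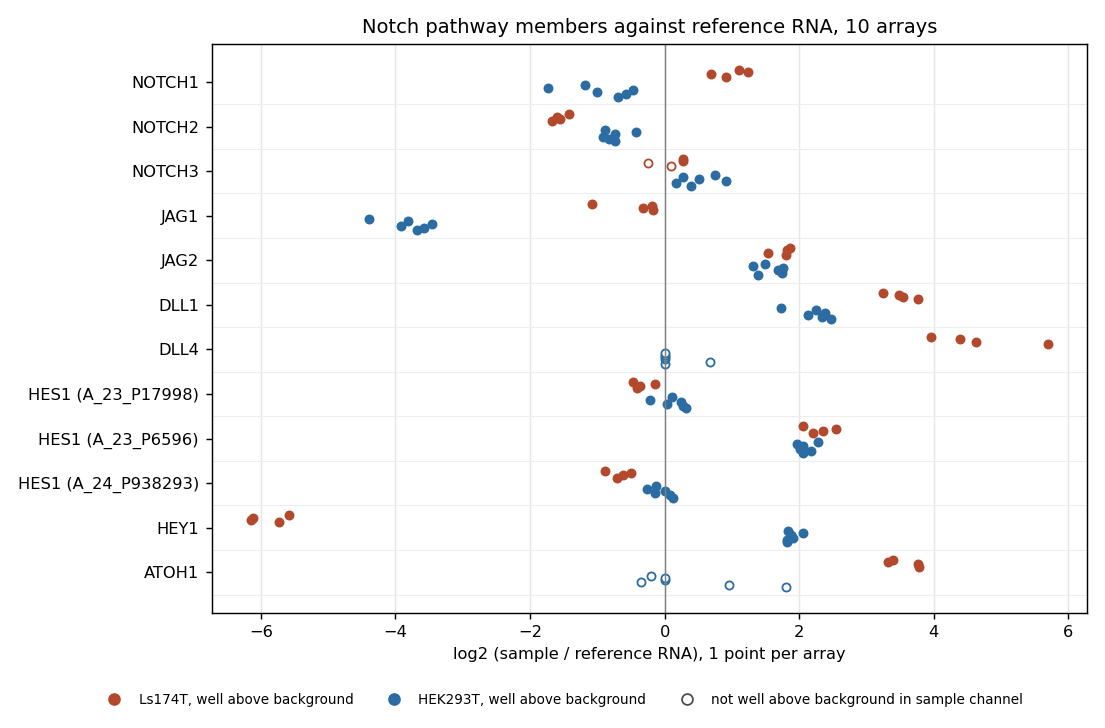
Log2 ratio of sample to reference RNA for the 12 member probes, with 1 point for each of the 4 Ls174T and 6 HEK293T arrays; open points were scored as not well above background. HEY1 lies at -6.14 to -5.58 in Ls174T and 1.81 to 2.06 in HEK293T cells, JAG1 at -1.08 to -0.18 and -4.39 to -3.46, and all HEK293T points of ATOH1 and DLL4 are open.

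Depletion of β-catenin in Ls174T cells left NOTCH1, JAG2 and DLL1 at lower and JAG1 and HES1 at higher values than si-control, with NOTCH1 the only measured member past 2-fold. The value of each array is the log2 ratio of depleted over si-control RNA, with the error of the scanner's error model (program error). Of the 12 member probes, 6 were measured on both arrays, and 1 of them, NOTCH1, was past 2-fold, lower. Across all 16513 probes measured, 5.66% were past 2-fold, with 4.48% higher and 1.17% lower. At 1.5-fold, 4 of the 6 were past the threshold, against 17.3% of all probes. Both arrays lay on 1 slide and held the same RNA, so they count as 1 replicate.

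NOTCH1 was at -0.72 on the first array (SD 0.10 over 10 spots) and at -1.52 on the second (SD 0.34 over 9 spots). In the depleted channel, all 10 spots of the first array but only 3 of the 9 on the second were scored well above background. Over the 7 spots measured on both arrays the mean was -1.14, with a program error of 0.21, a 2.21-fold decrease. It was lower on both arrays, but past 2-fold by the second array alone; with the first array only, the value was -0.72, and after normexp background correction with loess scaling it was -0.52. Lower values than that of NOTCH1 were found for 0.811% of the probes measured.

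JAG1 was at 0.94 on the first array and 1.06 on the second. Its mean of 0.999 (program error 0.16) lay just under 2-fold, higher after β-catenin depletion, and 4.48% of probes had a larger value. JAG2 was at -0.54 and -0.99, with a mean of -0.77 (program error 0.16). DLL1 was at -0.45 and -0.62, with a mean of -0.53 (program error 0.15). JAG1 was therefore higher and JAG2 and DLL1 lower on each array of the pair, by more than the program error.

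HES1 was higher by all 3 probes on the first array. A_24_P938293 gave 0.79 and 0.65, with a mean of 0.72 (program error 0.15). A_23_P17998 gave 0.75 on the first array, while on the second array its spot was dim in both channels, 30.3 times dimmer than on the first, as were only 0.112% of 23256 spots, and its ratio there was set to 0 by the program. A_23_P6596 gave 0.50 and 0.57 but was under 2 times background on both arrays. NOTCH2 gave 0.64 and -0.15, opposite signs, with a mean of 0.25; its spot was 6.02 times dimmer on the second array, as were 2.47% of spots. The cause of the dim spots was not tested.

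ATOH1, DLL4, NOTCH3 and HEY1 were below the filter on both arrays. ATOH1 read -1.71 and -0.67, with program errors of 0.96 and 1.56, and DLL4 read -1.56 and -1.35, with errors of 0.64 and 1.20. For ATOH1 neither channel was scored well above background on either array, so whether its RNA differed was not detectable here. Of 11 genes of gut secretory cells, 9 were measured by 15 probes, and 7 of these probes were past 2-fold higher and 0 lower. Across all probes 4.48% were past 2-fold higher and 1.17% lower. The list median was 0.39 against -0.02 for all probes. The probes past 2-fold are named next. They were SPDEF (2.21), which drives goblet cell maturation, 1 probe of the mucin MUC2 (1.67; its other probe stood at 0.39), AGR2 (2.49), KLF4 (1.66) and all 3 probes of TFF3 (1.57 to 2.02). The list was chosen with earlier results of these data known, so its count describes the list and tests nothing.

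**Figure D3:**
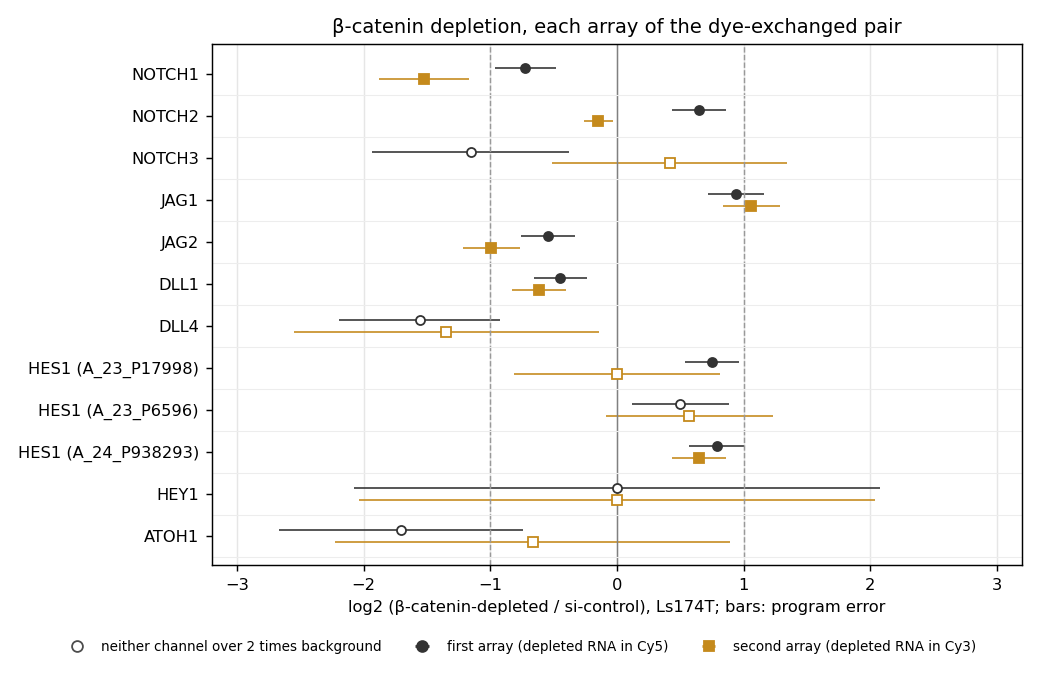
Log2 ratio of β-catenin-depleted over si-control Ls174T RNA for the 12 member probes on the first (circles) and second (squares) array of the dye-exchanged pair; bars are the program error, open symbols had neither channel over 2 times background, and dashed lines mark 2-fold. JAG1 (0.94 and 1.06) and the HES1 probe A_24_P938293 (0.79 and 0.65) lie right of 0 on both arrays, and NOTCH1, JAG2 and DLL1 lie left of 0 on both.

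Depletion of MLLT10 in Ls174T cells left the 10 member probes that were measured within 1.5-fold of their si-control values; NOTCH3 and DLL4 were below the filter. Of these 10 probes, 0 were past 2-fold, against 1.75% of 25407 probes. The changes, each the difference of 2 log2 ratios to the reference, ran from -0.40 for HEY1 to 0.14 for A_23_P6596 of HES1, and none exceeded its program error of 0.29 to 0.85. NOTCH1 was at -0.22 (SD 0.12 over 8 spots), JAG1 at -0.14, DLL1 at -0.23 and ATOH1 at -0.03. The ATOH1 value depended on the processing. It was -0.62, past 1.5-fold, after normexp correction and -0.41 by the sample channel alone. The reference channel of ATOH1 was at only 1.2 times background on both arrays. These 2 arrays shared a slide.

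Depletion of BRG1 in Ls174T cells also brought 0 of 10 measured member probes past 2-fold, against 5.21% of 25776 probes. Only NOTCH1 went beyond its program error, at 0.35 (error 0.34; SD 0.07 over 9 spots). The 3 HES1 probes stood at 0.26, 0.34 and 0.21, JAG1 at -0.01, DLL1 at -0.29 and ATOH1 at -0.46, the last with an error of 0.58. The si-BRG1 and si-P300 arrays were on another slide than the si-control array. On the slide that they shared, NOTCH1 differed by only 0.14 (error 0.34), si-BRG1 minus si-P300.

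Depletion of p300 in Ls174T cells gave its largest change among the measured members at JAG1. Of 10 member probes, 0 were past 2-fold, against 5.76% of 26130 probes, and 1, JAG1, was past 1.5-fold, against 14.9%. At neither fold was the share of members larger than that of all probes. JAG1 stood at -0.18 in si-control and -1.08 in si-P300 cells, a change of -0.91 (program error 0.31), and 2.11% of probes measured had lower values. DLL1 went from 3.77 to 3.25, a change of -0.51 within its error of 0.55, and ATOH1 changed by -0.38 with an error of 0.61. ATOH1 was past 1.5-fold after normexp correction (-0.59) and by the sample channel alone (-0.73). Its reference channel was at 1.2 times background in si-control and 1.3 times in si-P300 cells. NOTCH1 (0.21), NOTCH2 (0.25) and the HES1 probes (-0.18 to -0.07) stayed within their errors. On the slide that si-BRG1 and si-P300 shared, JAG1 was higher by 0.90 (error 0.31) in si-BRG1, so the lower JAG1 of si-P300 cells was seen within a slide as well.

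DLL4 was under the filter in Ls174T cells, and its ratio to the reference differed from si-control by -1.07 with si-MLLT10, -1.30 with si-BRG1 and -1.74 with si-P300. Its sample channel was at 1.7 times background in si-control and at 1.8 to 2.9 times in the depleted cells, so the ratios of DLL4 were not read as a change.

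In HEK293T cells, Wnt3A for 9 h moved none of the 9 member probes that were measured past 1.5-fold; NOTCH3, DLL4 and ATOH1 were below the filter. Of these 9 probes 0 were called, against 6.54% of 27053 probes. The changes ran from -0.14 for DLL1 to 0.36 for JAG2, which stood at 1.38 in control medium and 1.74 in Wnt3A (program error 0.35). JAG1 changed by 0.09 (error 0.56), NOTCH1 by 0.19, and HES1 by -0.05, 0.12 and -0.04. The si-control array in Wnt3A was alone on its slide and is also the control of each HEK293T depletion, so the 5 HEK293T comparisons share it and no difference between it and another array could be had within a slide.

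MLLT10 depletion in Wnt3A-treated HEK293T cells gave 0 of 9 member probes past 1.5-fold, against 7.32% of 26358 probes. Of the 9, 8 were below 0, from -0.41 for NOTCH1 (program error 0.37) to -0.05 for JAG2, with HEY1 at 0.09. DOT1L depletion gave 0 of 9, against 5.62% of 26815 probes, with changes from -0.11 to 0.12, all within the program error. On the slide these arrays shared, NOTCH1 was lower by MLLT10 than by DOT1L depletion, with a difference of -0.55 (error 0.35), JAG1 differed by -0.46 (error 0.57) and the other members by less than their errors.

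BRG1 depletion in HEK293T cells gave its largest change among the members at NOTCH1. Of 9 member probes, 1 was past 1.5-fold, lower, against 22.0% of 26115 probes past it in either direction and 11.7% lower, a share of members no larger than that of all probes. NOTCH1 went from -0.58 to -1.73, and 6 of its 9 usable spots on the si-BRG1 array were scored well above background. Its change was -1.15 (program error 0.39, SD 0.52) over the 2 spots that passed the filter on both arrays. Over all 9 usable spots the change was -1.13 (SD 0.30). After normexp correction the change was -0.61, still past 1.5-fold, and where both channels had to exceed 2 times background NOTCH1 was not measured. NOTCH2 was at 0.39 (error 0.30), JAG2 at -0.42 (error 0.35) and HES1 at -0.48, -0.21 and -0.34 by A_23_P17998, A_23_P6596 and A_24_P938293, the outer values beyond their errors of 0.29. JAG1 (-0.23), DLL1 (-0.10) and HEY1 (0.24) stayed within theirs.

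After p300 depletion in HEK293T cells the ligands JAG1 and DLL1 were lower. Of 9 member probes 2 were past 1.5-fold, both lower, against 12.1% of 25872 probes past it in either direction and 7.90% lower. JAG1 went from -3.58 to -4.39, a change of -0.81 (program error 0.61), and DLL1 from 2.34 to 1.72, a change of -0.62 (error 0.39). NOTCH1, at -0.58 (error 0.37), lay just inside the 1.5-fold limit. JAG2 was at -0.25, NOTCH2 at -0.06, HEY1 at 0.01 and HES1 between -0.22 and 0.10. Both calls were lost after normexp correction, where JAG1 was at -0.50 and DLL1 at -0.58. By the sample channel alone JAG1 was at -0.88 and DLL1 at -0.57, so the DLL1 call was lost there too. On the slide that si-BRG1 and si-P300 shared, DLL1 was higher in si-BRG1 by 0.52 (error 0.39), JAG1 by 0.58 (error 0.62) and NOTCH2 by 0.46 (error 0.30), and NOTCH1 differed by -0.61 (error 0.40).

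Side by side, the change of JAG1 after p300 depletion was -0.91 in Ls174T and -0.81 in HEK293T cells, and that of DLL1 was -0.51 and -0.62. In HEK293T cells JAG1 was read at 2.1 to 3.3 times background and DLL1 at 9.4 to 18.5 times, so DLL1 was read from the brighter spot there. The DLL1 call held neither after normexp correction nor by the sample channel alone. After BRG1 depletion NOTCH1 was at 0.35 in Ls174T and -1.15 in HEK293T cells, opposite in direction; the difference was not tested.

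**Figure D4:**
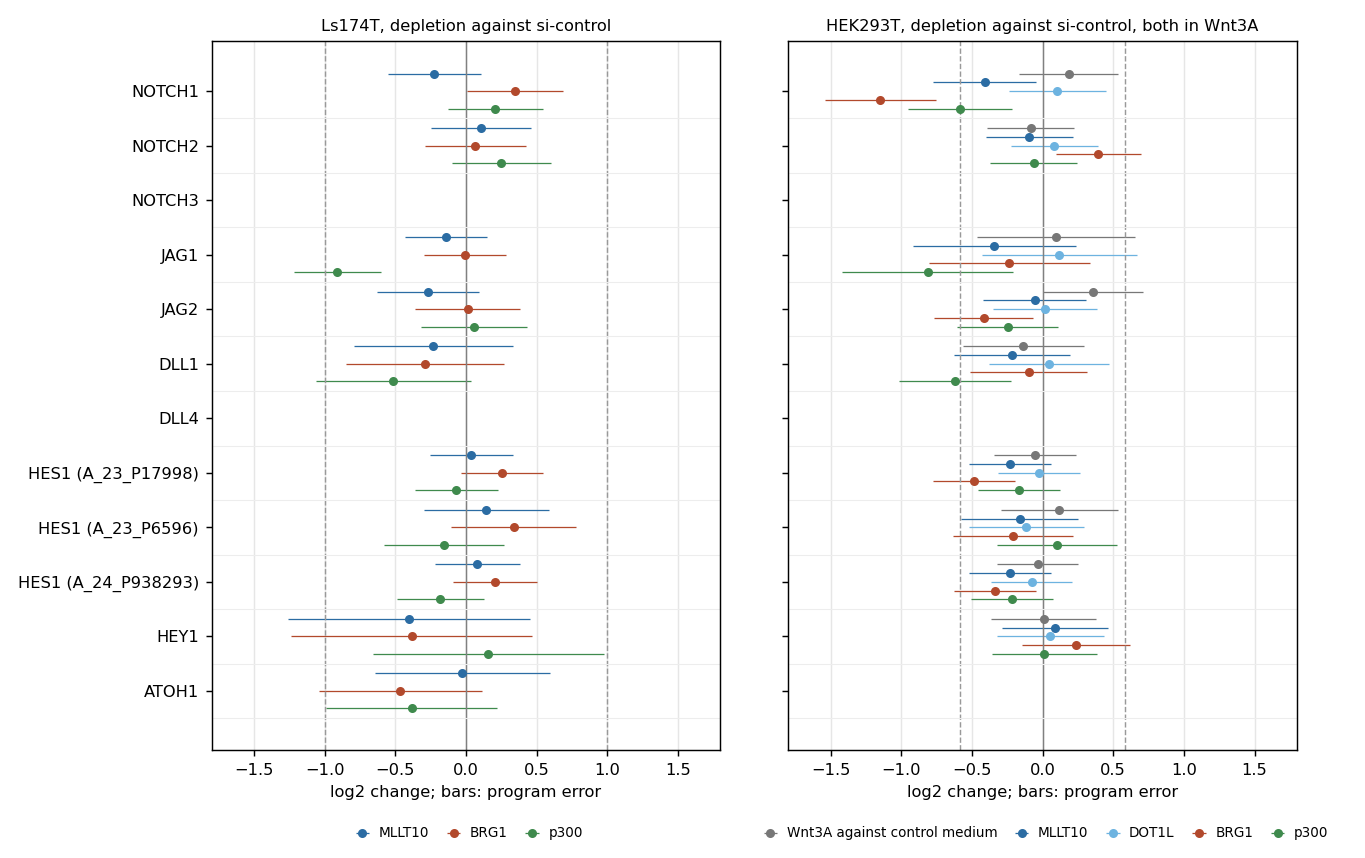
Log2 change of each member probe that passed the filter, for MLLT10, BRG1 and p300 depletion in Ls174T cells (left) and for Wnt3A and MLLT10, DOT1L, BRG1 and p300 depletion in HEK293T cells (right), with the program error as bars; HEK293T depletions are in Wnt3A, Wnt3A itself is against control medium, and dashed lines mark 2-fold on the left and 1.5-fold on the right. JAG1 after p300 depletion (-0.91 and -0.81) and NOTCH1 after BRG1 depletion in HEK293T cells (-1.15) lie farthest from 0 among these comparisons.

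The wider pathway was read through 49 further genes in 8 role lists, of which 47 were on the array with 75 probes. After β-catenin depletion 0 of 40 measured probes were past 2-fold, against 5.66% of all probes. Their median was 0.14 against -0.02 for all probes. MLLT10 depletion in Ls174T cells gave 0 of 60, against 1.75% of all probes. BRG1 depletion gave 1 of 61 (1.64% against 5.21% of all probes), 1 probe of MFNG at 1.10, and p300 depletion 4 of 63 (6.35% against 5.76%): DLK2 (1.02) and the same MFNG probe (1.01) higher, and the repressors HES2 (-1.29) and HES5 (-1.58) lower. MFNG is a Fringe glycosyltransferase that alters the ligand preference of NOTCH; its other probe stood at 0.49 and -0.004 in these comparisons, so the 2 probes disagreed.

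In HEK293T cells Wnt3A gave 2 probes higher and 1 lower of 66 past 1.5-fold, MLLT10 depletion 4 higher and 0 lower of 66, and DOT1L depletion 2 higher and 0 lower of 66. These were 4.55%, 6.06% and 3.03% of the measured pathway probes, against 6.54%, 7.32% and 5.62% of all probes, so none exceeded its background. With Wnt3A, 1 probe of DTX3L (0.79) was higher and 1 of KAT2B (-0.68), an acetyltransferase of the NOTCH complex, was lower, and LNX1 (0.68) was past the fold without being well above background. MLLT10 depletion gave NUMBL (1.46), HES5 (1.52), 1 probe of the γ-secretase subunit APH1A (0.76) and HES7 (0.60), and DOT1L depletion HES5 (0.97) and the same APH1A probe (0.60), all higher.

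BRG1 depletion in HEK293T cells gave 5 probes higher and 9 lower of 65 past 1.5-fold, in all 21.5% against 22.0% of all probes. The other HES and HEY genes had 4 of 7 probes past it: HEYL (1.33) and both HEY2 probes (1.03 and 1.25) higher, and HES7 (-0.89) lower. The ubiquitin ligase NEURL1, which acts on ligands, was lower by both probes (-0.84 and -1.16), and 1 probe each of the Fringe enzymes LFNG (-0.96) and MFNG (-1.01) was lower. The rest were 1 probe each of KAT2B (0.89) and FBXW7 (0.70), higher, and of DLK1 (-0.60), APH1A (-1.08), CTBP1 (-0.59) and DTX3L (-0.70), lower. p300 depletion gave 3 higher and 5 lower of 65, in all 12.3% against 12.1%. MAML1, the coactivator that brings p300 to the NOTCH complex, was lower by both probes, at -0.82 and -0.83 (errors 0.34 and 0.30), and stood at -0.09 and -0.05 after p300 depletion in Ls174T cells. HES5 was at 1.44, with an error of 0.69. The rest were 1 probe each of APH1A (0.79) and APH1B (0.71), higher, and of MFNG (-0.62) and KAT2B (-0.60), lower, and LNX1 (-0.61), which was not well above background.

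Of the gut secretory probes, 0 of 15 were past 2-fold after depletion of MLLT10, BRG1 or p300 in Ls174T cells. The shares of all probes there were 1.75%, 5.21% and 5.76%. In HEK293T cells 6 of 16 were past 1.5-fold, all higher, with Wnt3A, and 5 of 15 with si-MLLT10, 5 of 16 with si-DOT1L and 6 of 15 with si-P300 were lower, as were 6 of 15 with si-BRG1, where 2 were higher. In either direction these were 37.5%, 33.3%, 31.2%, 40.0% and 53.3% of the list's probes for Wnt3A, si-MLLT10, si-DOT1L, si-P300 and si-BRG1, against 6.54%, 7.32%, 5.62%, 12.1% and 22.0% of all probes; the depletions share the si-control array in Wnt3A, which is also an array of the Wnt3A comparison. The list holds 19 probes of 11 genes, so its probes are not separate genes. It was chosen with earlier results of these data known, so these shares describe the list and test nothing. ATOH1 itself was not measured on the HEK293T arrays.

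**Figure D5:**
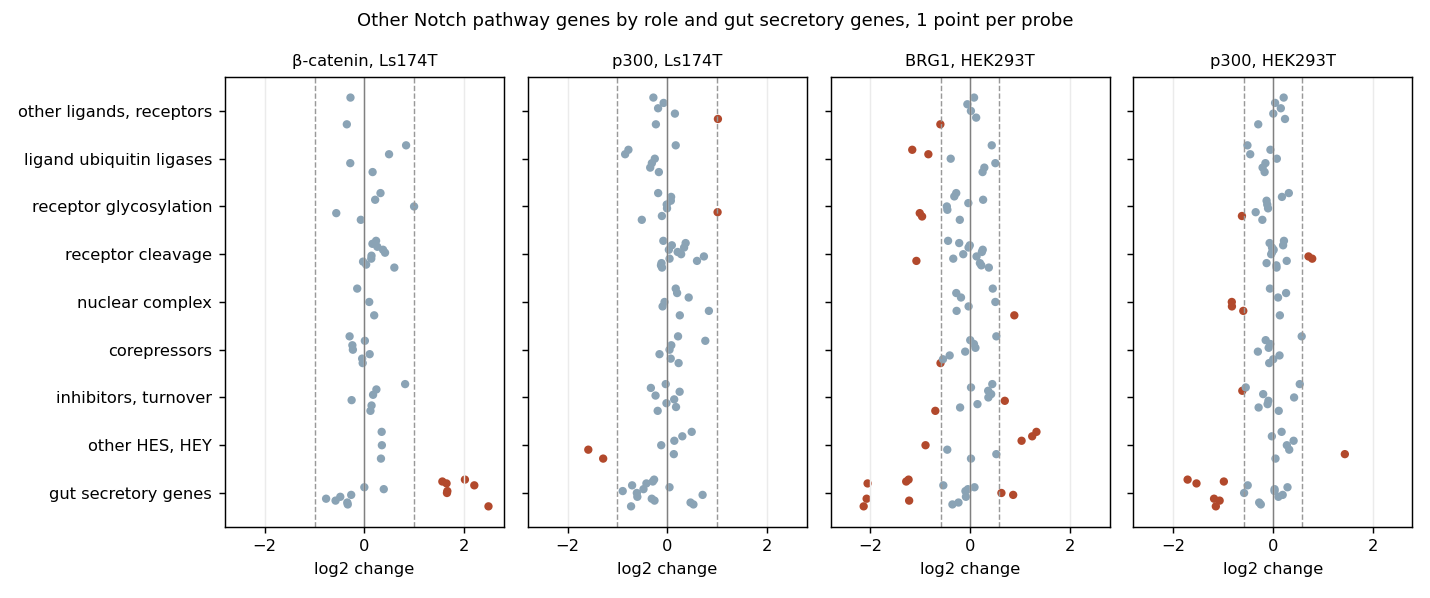
Log2 change of each measured probe of the 8 role lists of the Notch pathway and of the gut secretory genes, in 4 comparisons; dashed lines mark 2-fold (Ls174T) or 1.5-fold (HEK293T), and red points are past them. After β-catenin depletion the 7 red points all belong to gut secretory genes, and after BRG1 depletion in HEK293T cells 5 pathway probes are red on the right and 9 on the left.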

How the data were processed

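Two-colour Agilent 4x44K whole genome arrays were read by the authors with Agilent Feature Extraction (version 8.5.1.1 per the labels, 10.5.1.1 per the file headers). The deposited intensity values are the background-subtracted, dye-normalized processed signals of both channels with their local backgrounds, and the deposited log10 ratios (Cy5 over Cy3) carry the program's error. Log10 ratios were turned to log2 of sample over the other channel. The series table that the authors deposited held the same ratios to within 1.50e-05 on the log2 scale. For the β-catenin pair the methods would give reference RNA in the other channel and the labels give si-control, and the labels were followed. One label of the si-DOT1L sample spells its siRNA si-cDOT1L.

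Control and outlier spots were left out, and spots of a probe were averaged. A probe was measured where either channel exceeded 2 times its local background on every array compared. A change was the mean of the dye-exchanged pair or the difference of 2 ratios to the reference; after the study's methods, the threshold was 2-fold for Ls174T and 1.5-fold for HEK293T. Well above background is the program's own flag. Folds for probes not well above background in 1 line came from single channels after loess and Aquantile scaling. RefSeq symbols were found for 27612 of 29084 spots with an accession (94.9%), and the reference table was GRCh38.p14. The number of arrays, 1 per condition, limits the precision: errors are the program's error or the SD between spots. The members, role lists and markers were chosen with earlier results of these data known. One marker is not reported here. Every member probe was accounted for, and other pathway genes were named where past the fold and well above background, with LNX1 named in addition; gut secretory genes in HEK293T cells were only counted. Alternatives were normexp (offset 50) with loess (limma 3.58.1, R 4.3.3), the sample channel alone, other filters and folds, outlier spots kept, the deposited table, and each array of the pair alone. The sample channel alone was the log2 processed signal less the log2 of its 75th percentile on the array. For the β-catenin pair, where both channels hold Ls174T RNA, that setting still took the difference of both channels. Calls were tested on simulated data. That test, with planted changes, covers the calling step only and says nothing about the conditions compared here. Values were tabulated in Python 3.11.15.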

Additional observations from a re-analysis of the deposited data

Results flagged for a closer look

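NOTCH1 after BRG1 depletion was singled out because the change ran in opposite directions in the 2 cell lines, each beyond its program error: 0.35 in Ls174T and -1.15 in HEK293T cells. Each direction rests on 1 sample per condition, and the difference between the lines was not tested. The Ls174T value exceeded its error of 0.34 narrowly, and after normexp correction the values were 0.12 and -0.61. By the sample channel alone they were 0.18 and -0.79. In both lines the si-BRG1 and si-control arrays lay on different slides. Against si-P300 on the same slide, NOTCH1 in si-BRG1 cells differed by 0.14 (error 0.34) in Ls174T and -0.61 (error 0.40) in HEK293T cells.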

How the results depend on the processing

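No called member changed direction under the alternatives run. After β-catenin depletion the count of 1 member probe past 2-fold was 0 with normexp, 3 with no signal filter, 4 at 1.5-fold, and 0 to 2 on single arrays of the pair. With no signal filter, which admits DLL4, ATOH1 and NOTCH3, counts were 1 for each Ls174T depletion of MLLT10, BRG1 and p300 (0 with the filter), and in HEK293T cells 2 for Wnt3A, 3 for MLLT10, 2 for DOT1L, 3 for BRG1 and 5 for p300 (against 0, 0, 0, 1 and 2). These are counts of 12 member probes. All-probe calls without the filter (higher, lower) were 1611 and 1417 for MLLT10, 3544 and 1329 for BRG1, 3222 and 1429 for p300 in Ls174T. In HEK293T cells they were 3781 and 3148 for Wnt3A, 3299 and 4158 for MLLT10 and 2553 and 3928 for DOT1L. BRG1 gave 5372 and 6556 there, and p300 3421 and 5657. Each comparison then held 40954 to 41000 probes, and a member count was not tested against them. With the sample channel alone, the HEK293T count for Wnt3A was 2 (the HES1 probes A_23_P6596, 0.79, and A_24_P938293, 0.76). For MLLT10 it was 3, all HES1 (-0.64, -0.59 and -0.94), and for DOT1L 1, A_24_P938293 of HES1 (-0.74). For BRG1 it was 4, NOTCH1 (-0.79) and all 3 HES1 probes (-0.93, -1.44 and -0.73). These comparisons all share the si-control array in Wnt3A, so their HES1 calls are not separate. The median of all probes there shifted to 0.10 for Wnt3A and -0.13 for BRG1. The p300 count in Ls174T cells was 1 at 1.5-fold. In HEK293T cells it was 0 with normexp and 0 at 2-fold. By the sample channel alone it stayed at 2 in HEK293T cells, with the HES1 probe A_24_P938293 (-0.87) in place of DLL1 (-0.57). The BRG1 count in HEK293T cells was 0 with both channels over background. The cause was not tested, beyond the wider or narrower set of probes that a filter admits. Of the single changes, 4 moved and 21 stayed. Some settings could not move a value: the deposited table holds the same ratios, and keeping outlier spots left each of these changes as it was. For JAG1 and DLL1 after p300 depletion in HEK293T cells, read in 1 spot each, the other signal filters also gave the same value. A change that stayed could still lose its call, as JAG1 and DLL1 did after normexp correction. Signal near background limits NOTCH1, NOTCH3, DLL4, ATOH1, HEY1 in Ls174T cells and JAG1 in HEK293T cells. No paired analysis was possible because each condition was 1 sample.

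Over all probes, normexp gave fewer calls than the processed ratios: 508 higher and 83 lower against 740 and 194 for β-catenin, 4 and 6 against 192 and 253 for MLLT10, 36 and 111 against 967 and 376 for BRG1, and 49 and 156 against 1068 and 436 for p300 in Ls174T cells, and in HEK293T cells 464 and 138 against 1020 and 750 for Wnt3A, 289 and 131 against 924 and 1005 for MLLT10, 81 and 250 against 562 and 946 for DOT1L, 1438 and 2161 against 2707 and 3045 for BRG1, and 281 and 804 against 1079 and 2044 for p300. The sample channel alone gave 2449 and 358 of 25776 for BRG1 and 2326 and 453 of 26130 for p300 in Ls174T cells. In HEK293T cells it gave 4443 and 988 of 27053 for Wnt3A and 1031 and 3531 of 26358 for MLLT10. For DOT1L it gave 563 and 3597 of 26815, for BRG1 2836 and 6864 of 26115, and for p300 1057 and 4950 of 25872. For β-catenin, no filter gave 1131 and 539 and both channels over background 450 and 129; in the other 8 comparisons too, no filter gave more calls and both channels fewer.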
